A study of Mus musculus with 6 samples.

Results

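The genes described here are 45 components of bone morphogenetic protein (BMP) and transforming growth factor beta (TGF-beta) signalling. They were taken by symbol from a fixed list of ligands, binding proteins, antagonists, receptors, Smads and Smad regulators. All 45 were measured, among 22180 genes in the whole data set, each by 1 feature of the array whose annotation gives that symbol alone. Expression was measured with 6 arrays (GeneChip Mouse Gene 2.0 ST, Affymetrix), 1 for each sample of hair follicle stem cells of mouse skin at postnatal day 49. The cells had been sorted by flow cytometry as CD34+ and α6-integrin+. The 3 control arrays came from wild-type mice (WT). The other 3 came from mice carrying the K14-sPLA2-IIA transgene (TG), in which a keratin 14 promoter, active in basal epidermal cells and the outer root sheath, drives a secreted phospholipase A2. The labels name no other allele or treatment, do not give the strain, and leave unsaid if the RNA of an array came from 1 mouse or a pool. The p-values therefore measure only the spread between these samples. All values are on the log2 scale of the authors' deposited values, so 1 unit stands for a 2-fold difference if the base is 2 as read from the range. Precision is limited by the number of arrays.

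BMP, TGF-beta and activin ligands are secreted dimers that bring together type I and type II receptor kinases at the cell surface. The activated type I receptor phosphorylates receptor Smads, which join Smad4 and enter the nucleus, where they switch target genes on or off. BMP receptors act through Smad1, Smad5 and Smad9, and TGF-beta and activin receptors through Smad2 and Smad3. In the hair follicle, BMP signals from the inner bulge, the dermis and fat keep stem cells at rest, whereas BMP antagonists and TGF-beta 2 from the dermal papilla accompany the start of a new growth phase. Inhibitory Smads, ubiquitin ligases and corepressors limit the response, and several of them are themselves Smad targets.

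The mouse gene of the labelled phospholipase was high in TG, and the samples were unequal in the RNA of cell type markers. The labels do not give the species of the transgene, so the mouse Pla2g2a feature may read the transgene, the mouse's own gene or both. Pla2g2a read 6.77, 5.75 and 5.90 in WT and 12.61, 12.57 and 12.39 in TG, with values here and below in the order of the array numbers 1, 2 and 3. All 3 TG arrays were far above the WT arrays. The 2 arrays numbered 3, 1 of each genotype, stood apart from the rest. Their mean log2 value over 17 measured bulge markers was 11.15 in WT and 10.88 in TG, against 9.94 to 9.99 on WT arrays 1 and 2 and TG array 2, with TG array 1 at 10.85. Over 10 suprabasal epidermis markers the arrays numbered 3 were the lowest, at 10.21 in WT and 9.81 in TG, against 11.06 to 12.10 on the other 4. Krt10, a keratin of suprabasal cells that bulge cells do not normally make, read 13.02 to 14.12 on the 6 arrays, and Cd3e, a gene of the CD3 complex of T cells, 7.87 to 11.37. Cd34, a sorted antigen, read 9.78, 9.89 and 13.07 in WT and 11.57, 9.65 and 12.42 in TG. The bulge markers did not all follow Cd34. Of the 17, 7 had both arrays numbered 3 above the other 4 (19.4% of all genes). For 2, Itga6 and Krt14, both were below (28.8% of all genes). For Itga6, encoding the sorted α6-integrin, array 3 minus the mean of arrays 1 and 2 was -0.31 in WT and -0.40 in TG. For Krt14 it was -0.41 in WT and -0.35 in TG. The list means of 13 fibroblast and dermal papilla markers (6.51 to 6.88), 9 endothelial markers (5.58 to 6.22), 8 macrophage and Langerhans cell markers (6.63 to 7.06) and 8 melanocyte markers (6.68 to 7.52) varied less. The means of 6 T-cell markers (6.93 to 9.07) and 9 sebocyte markers (6.54 to 7.92) were lowest on the arrays numbered 3. Suprabasal and bulge markers also differed in mean between the genotypes, without passing the test. All 10 suprabasal markers were lower in TG (median difference -0.41), 9 of them in each of the 3 number-matched pairs (16.5% of all genes). Of 17 bulge markers, 14 were higher in TG (median difference 0.28), where 47.9% of all genes were. Only 2 of the 17 were higher in each of the 3 pairs, against 14.6% of all genes. The bulge list mean was lower on TG array 3 (10.88) than on WT array 3 (11.15). The part of these markers in the gene group directions given below was not tested. In bulk RNA, fewer cells of a type and less RNA per cell cannot be told apart.

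**Figure D1:**
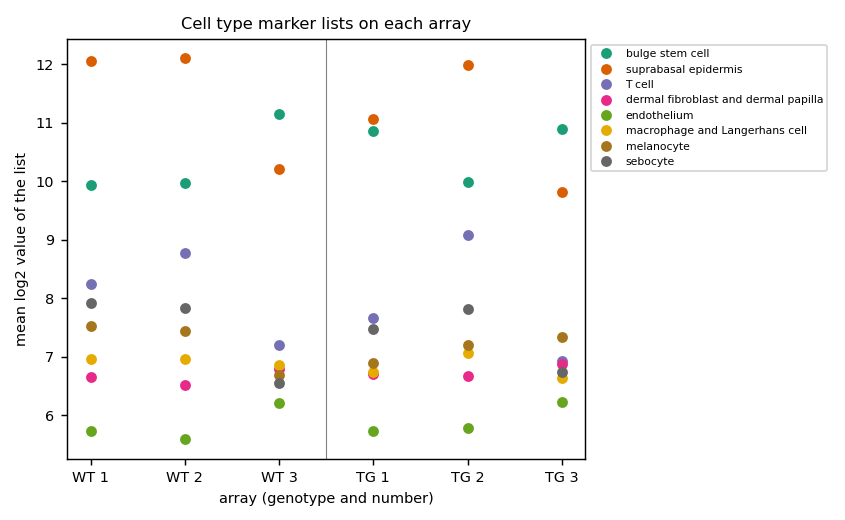
Mean log2 value of 8 lists of cell type markers on each array (points, 1 per list and array; WT arrays left of the line, TG arrays right). The bulge markers lie between 9.94 and 11.15 and the suprabasal markers between 9.81 and 12.10, and the arrays numbered 3 have the lowest suprabasal means.

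No BMP or TGF-beta gene passed the test of a difference between the genotypes, given the spread between arrays. Of the 45 genes, 0 passed an adjusted p of 0.05 in limma, where 0.00451% of all 22180 genes did (1 gene, Pla2g2a), and 0 had an unadjusted p under 0.05, against 2.77% of all genes, 1.93% higher and 0.843% lower in TG. The adjusted p was 0.99996 for each of them. The TG minus WT difference was above 0 for 25 of the 45 and below 0 for 20, against 47.9% of all genes above 0. The median difference was 0.045 over the 45 genes and -0.0075 over all genes. Differences ran from -0.55 for Bmp4 to 0.80 for Gdf10. Those of Gdf10, Smad7 and Tgfb3 were at least 1.5-fold, or 3 of 45 genes where 2.73% of all genes were that far apart.

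Only Inhbb had all TG arrays on one side of all WT arrays, 1 of 45 genes against 7.2% of all genes, 3.99% with TG above and 3.21% with TG below. With 1 array left out, that count can only rise or stay, and so can the share of all genes. It was 11 when WT array 3 was dropped (23.2% of all genes), 8 for TG array 2 (15.8%) and 5 for TG array 3 (20.1%). Dropping WT array 2 gave 4 (13.4%), TG array 1 gave 3 (11.4%) and WT array 1 gave 1 (13.4%), and quantile normalization of all 6 arrays gave 4 (7.48%). None of the 45 genes passed the adjusted threshold in limma in any of these fits. With each array centred on its median, 1 gene had an unadjusted p under 0.05 (3.07% of all genes). The unadjusted p was under 0.05 for 7 genes without WT array 3, where 4.79% of all genes were, and all 7 were higher in TG (2.61% of all genes higher, 2.17% lower). It was so for 3 genes without TG array 2 (3.91% of all genes), 2 higher (2.48%) and 1 lower (1.43%). With limma's array weights it was so for 6 genes (14.1% of all genes), 4 higher (7.9%) and 2 lower (6.16%). TG array 1 had by far the largest weight in that fit (4.23).

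The arrays numbered 2 and those numbered 3 deviated together from their genotype means (correlations of 0.67 and 0.74), those numbered 1 only weakly (0.20). The 3 deviations of a gene within a genotype cancel out, so these correlations depend on each other. The value for number 2 is partly set by the arrays numbered 3 and is not separate evidence of a pair. The fit was repeated with the replicate number as a block, a pairing read from these data and not from the labels. With the block, 8 of the 45 genes (17.8%) had an unadjusted p under 0.05, 7 with a higher and 1 with a lower TG value, where 8.45% of all genes did, 4.59% higher and 3.86% lower. These were Bmp7, Gdf10, Tgfb3, Inhbb, Tgfbr1, Smad7 and Skil on the higher side and Bmp4 on the lower side. None passed after adjustment over all genes (lowest adjusted p = 0.531 in limma, for Smad7). In all 3 number-matched pairs the TG array was the higher one for the same 7 genes, 7 of 45 against 14.6% of all genes, and the lower one for 5 of 45 (Bmp4, Bmpr2, Acvr2a, Smurf2 and Ski) against 16.5%. Without both arrays numbered 3, which leaves 2 arrays per genotype, 8 genes had an unadjusted p under 0.05 (5.92% of all genes), all higher in TG (3.32% of all genes higher, 2.6% lower), and 0 passed (lowest adjusted p = 0.783 in limma). TG was then above WT without overlap for 13 of 45 genes, against 17.1% of all genes, and below it for 2 (Bmpr2 and Ski), against 20.6%, in all 15 genes against 37.7%. With the replicate block as well, 11 of 45 genes had an unadjusted p under 0.05, against 7.36% of all genes.

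**Figure D2:**
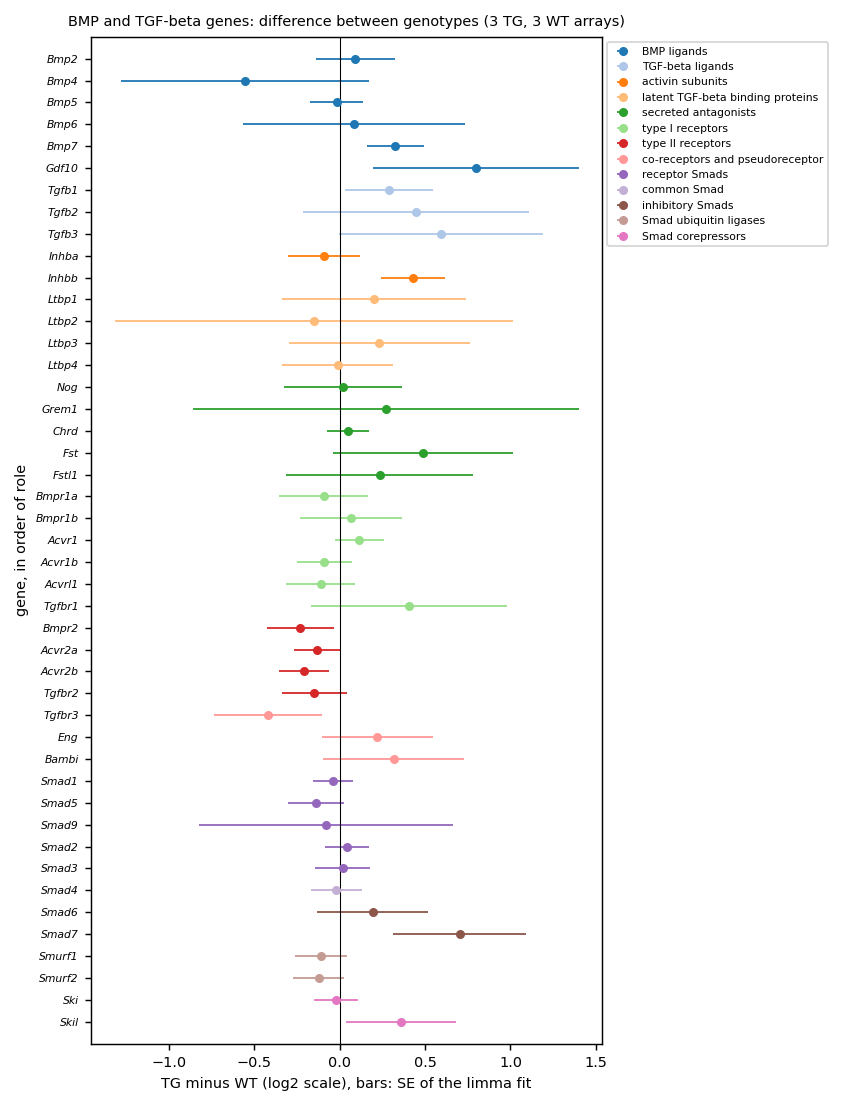
TG minus WT difference on the log2 scale for the 45 genes, grouped by role (points: difference of the means of 3 TG and 3 WT arrays; bars: SE of the limma fit). The differences lie between -0.55 (Bmp4) and 0.80 (Gdf10), and those with the widest bars are Ltbp2 and Grem1.

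The 250 bases before the start of 4 genes are shown, the pair with the largest excess on the arrays numbered 3 (Grem1 and Ltbp2), the one with the largest deficit there (Bmp4) and the one whose genotypes did not overlap (Inhbb). They are from RefSeq on build GRCm38.p6, read 5′ to 3′ on the gene's strand, the minus strand in each case, at chr2:113758649-113758898 (Grem1), chr12:84876492-84876741 (Ltbp2), chr14:46390670-46390919 (Bmp4) and chr1:119422249-119422498 (Inhbb). Capitals mark the short Smad-binding letters CAGAC or its reverse complement GTCTG, and GGCGCC, a GC-rich motif known from BMP-responsive promoters, which is its own reverse complement. Both motifs were searched on both strands, and they can share at most 1 base.
Grem1: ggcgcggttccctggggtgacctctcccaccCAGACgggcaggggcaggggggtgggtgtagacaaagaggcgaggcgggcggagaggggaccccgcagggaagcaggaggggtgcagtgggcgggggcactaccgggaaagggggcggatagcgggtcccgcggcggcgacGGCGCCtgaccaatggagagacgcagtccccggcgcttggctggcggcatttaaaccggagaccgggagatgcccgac
Ltbp2: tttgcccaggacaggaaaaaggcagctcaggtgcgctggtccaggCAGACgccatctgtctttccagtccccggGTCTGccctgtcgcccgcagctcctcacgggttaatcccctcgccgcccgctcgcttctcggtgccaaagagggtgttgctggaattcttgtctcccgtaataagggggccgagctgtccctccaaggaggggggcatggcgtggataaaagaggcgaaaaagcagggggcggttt
Bmp4: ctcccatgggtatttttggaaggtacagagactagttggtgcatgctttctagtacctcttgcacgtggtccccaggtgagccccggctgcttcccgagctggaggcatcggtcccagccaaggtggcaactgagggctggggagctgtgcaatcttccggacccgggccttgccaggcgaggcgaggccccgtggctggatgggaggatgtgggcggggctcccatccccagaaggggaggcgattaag
Inhbb: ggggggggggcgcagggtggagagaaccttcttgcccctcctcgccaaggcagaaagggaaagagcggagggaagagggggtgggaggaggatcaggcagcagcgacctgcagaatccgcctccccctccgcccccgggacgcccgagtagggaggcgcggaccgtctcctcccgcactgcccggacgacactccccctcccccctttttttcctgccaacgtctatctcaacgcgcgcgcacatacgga

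Grem1 held 1 match to CAGAC and 1 to GGCGCC in this window, Ltbp2 held 2 to CAGAC, and Bmp4 and Inhbb held neither. RefSeq starts were matched for 33 of the 45 genes, with 41 promoters between them. CAGAC was in 19 of these 41 (46.3%), against 42.2% of 32851 promoters of all genes, and GGCGCC in 11 (26.8%) against 9.59%. The median GC content of the same windows was 68.0% over these 41 promoters and 52.4% for all promoters. A match is a run of letters and does not show that a Smad binds there.

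Among the BMP ligands, Bmp4 and Bmp6 had the largest pooled SD within genotypes, 1.14 and 1.01, ahead of Gdf10 at 0.94, and Bmp4 was low where Bmp6 was high on the arrays numbered 3. Bmp4, a dermal and epithelial BMP, read 9.21, 9.63 and 7.46 in WT and 8.35, 9.26 and 7.03 in TG. The lowest value of each genotype was on its array 3, each TG array lay below the WT array of the same number, and the genotypes overlapped. The difference was -0.55 ± 0.72 (SE, TG minus WT), and -0.55 ± 0.14 (SE) with the replicate block, at an unadjusted p of 0.00796 and an adjusted p of 0.538 in limma. Leaving out 1 array at a time gave Bmp4 differences between -1.21 and 0.037. It was above 0 only without TG array 3. The suprabasal marker means were also lowest on the arrays numbered 3, and their part in the Bmp4 values was not tested.

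Bmp6, made by bulge keratinocytes and known to hold stem cells quiescent, read 8.39, 8.24 and 9.60 in WT and 9.25, 7.45 and 9.78 in TG. It was highest on the arrays numbered 3 and lowest on TG array 2. The TG minus WT difference was 0.084 ± 0.65 (SE). Bmp7 read 10.71, 10.89 and 10.47 in WT and 10.94, 11.24 and 10.88 in TG, with each TG array above the WT array of its number and the only overlap between WT array 2 and TG array 3, which were nearly equal. Its difference was 0.33 ± 0.17 (SE) without and 0.33 ± 0.11 with the block (unadjusted p of 0.0236 and adjusted p of 0.551 in limma with the block).

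Gdf10, which encodes the BMP3-related factor BMP3b, had the largest difference of the 45 genes, at 0.80 ± 0.60 (SE). Its WT arrays read 7.18, 6.40 and 7.54 and its TG arrays 8.93, 6.57 and 8.02. The value rested on TG array 1, without which the difference was 0.25, whereas without TG array 2 it was 1.43. Bmp2, which the dermal fat makes in the hair cycle, differed by 0.093 ± 0.23 (SE). That value ranged from -0.091 without TG array 1 to 0.34 without TG array 3, and it was 0.30 ± 0.14 without both arrays numbered 3, where TG lay above WT. Bmp5 differed by -0.018 ± 0.15 (SE). Bmp5 lay among the dimmest 25% of all genes, where a difference can be understated.

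All 3 TGF-beta ligand genes had higher means in TG, after quantile normalization and median centring too, without passing the test. Tgfb3 read 9.08, 8.27 and 9.85 in WT and 9.82, 8.54 and 10.63 in TG. Both genotypes had their highest value on array 3 and their lowest on array 2, and the TG array was the higher one in each pair. The differences within the pairs were 0.74, 0.26 and 0.77 for numbers 1, 2 and 3. The mean difference of 0.59 had an SE of 0.60 without the block and 0.14 with it (unadjusted p of 0.00695, adjusted p of 0.538 in limma with the block). It ranged from 0.11 without TG array 3 to 1.15 without TG array 2.

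Tgfb2, the ligand that dermal papilla cells send to the hair germ at the start of growth, read 6.40, 7.10 and 8.97 in WT and 7.87, 7.36 and 8.57 in TG. The arrays numbered 3 were above the other 4. Its difference was 0.45 ± 0.66 (SE), and 0.86 ± 0.29 without both arrays numbered 3, where TG lay above WT. It was below 0 in 1 fit, without WT array 1, at -0.099. Tgfb1 differed by 0.29 ± 0.26 (SE), with WT array 1 at 8.44 and the other 5 arrays between 9.17 and 9.40, so that the difference was -0.0020 without WT array 1.

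Of the activin subunits, Inhbb (activin βB) was the gene whose genotypes did not overlap. It read 7.25, 6.99 and 7.47 in WT and 7.55, 7.51 and 7.95 in TG. The lowest TG array was only just above the highest WT array, and in each genotype array 3 was the highest. The means were 1.35-fold apart, by 0.43 ± 0.19 (SE), with an exact two-sided permutation p of 0.1, the smallest that 3 against 3 arrays can give. With the replicate block it was 0.43 ± 0.11 (unadjusted p of 0.00874, adjusted p of 0.538 in limma). Leaving out single arrays gave values from 0.29 to 0.55, and without both arrays numbered 3 it was 0.41 ± 0.14. Inhba, encoding activin βA, read between 4.81 and 5.58 on the 6 arrays and differed by -0.092 ± 0.21 (SE).

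**Figure D3:**
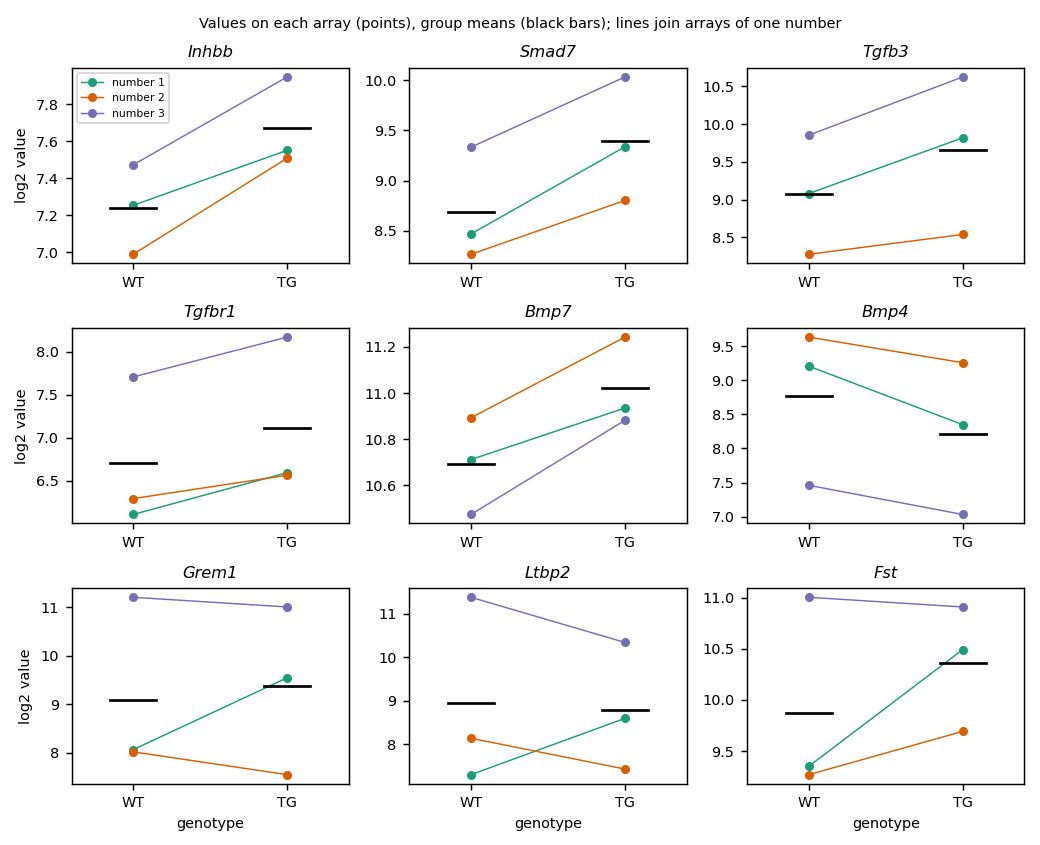
Log2 values of 9 genes on each array (points coloured by array number, lines joining the WT and TG arrays of one number, black bars the genotype means; the vertical axes differ between panels). Inhbb, Smad7, Tgfb3, Tgfbr1 and Bmp7 are higher on the TG array of every pair and Bmp4 is lower, while Grem1, Ltbp2 and Fst are split by array number.

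The latent TGF-beta binding proteins, which tether TGF-beta to the matrix until it is activated, were split by array rather than by genotype. Ltbp2 had the widest spread of the 45 genes. Its values were 7.30, 8.13 and 11.37 in WT and 8.59, 7.42 and 10.34 in TG, so array 3 stood over the mean of arrays 1 and 2 by 3.66 in WT and by 2.33 in TG. The genotype difference was -0.15 ± 1.17 (SE), and single arrays moved it from -0.97 to 1.07. Ltbp3 and Ltbp4 were also highest on the arrays numbered 3, and Ltbp1 was highest on WT array 3, followed by TG array 1. Their genotype differences were 0.20 ± 0.54 (Ltbp1), 0.23 ± 0.53 (Ltbp3) and -0.012 ± 0.32 (Ltbp4), all SE. Of 13 fibroblast and dermal papilla markers, 4 had both arrays numbered 3 above the other 4 (19.4% of all genes). For 1 of the 13 both were below (28.8% of all genes). Fbln1, encoding the matrix protein fibulin 1, was the most uneven, at 9.10, 8.64 and 11.20 in WT and 9.85, 8.60 and 10.83 in TG. Col1a1, a collagen gene of fibroblasts, read 7.17, 6.99 and 8.08 in WT and 7.52, 7.35 and 8.64 in TG, and Pdgfra, a fibroblast receptor gene, 5.07, 5.08 and 4.71 in WT and 5.46, 5.27 and 5.18 in TG, so that these markers did not move together. Their part in the values of the binding proteins and antagonists was not tested.

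Among the secreted antagonists, Grem1, Fst and Fstl1 were high on the arrays numbered 3 and intermediate or high on TG array 1. Grem1, encoding the BMP antagonist gremlin 1, read 8.07, 8.02 and 11.21 in WT and 9.55, 7.55 and 11.01 in TG. TG array 1 lay between the high arrays numbered 3 and the low WT arrays 1 and 2 and TG array 2. The difference between genotypes was 0.27 ± 1.13 (SE), against a pooled SD within genotypes of 1.78, and it ranged from -0.55 to 1.33 when 1 array was left out. Fst, encoding follistatin, which traps activins and some BMPs, read 9.35, 9.27 and 11.00 in WT and 10.49, 9.69 and 10.91 in TG. WT array 3 was the highest of all, and TG arrays 1 and 2 were above WT arrays 1 and 2. All 6 arrays gave a difference of 0.49 ± 0.53 (SE), and the fit without the arrays numbered 3 gave 0.78 ± 0.28 (unadjusted p of 0.0367, adjusted p of 0.783 in limma).

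Nog, encoding noggin, was high on WT array 3 alone, with 7.00, 7.03 and 8.25 in WT and 7.59, 7.26 and 7.48 in TG. It differed by 0.018 ± 0.34 (SE) over the 6 arrays and by 0.41 ± 0.15 without the arrays numbered 3. Fstl1, a follistatin-like secreted glycoprotein gene, differed by 0.23 ± 0.55 and Chrd, encoding chordin, by 0.048 ± 0.12 (SE). Chrd read 6.09 to 6.28 on all 6 arrays. The 5 antagonist differences were all above 0, with a median of 0.23, as they were after quantile normalization and median centring, though Chrd was below 0 with array weights. Of the 5 only Fst and Chrd kept that sign whichever single array was left out.

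The type I receptor genes showed no common direction, 3 above 0 and 3 below. Tgfbr1, the TGF-beta type I receptor, was the one with a large spread, at 6.11, 6.30 and 7.71 in WT and 6.60, 6.57 and 8.17 in TG. Its arrays numbered 3 were more than 1 unit above the other 4, and within each number TG was the higher array, by 0.49, 0.27 and 0.46. The difference was 0.41 ± 0.58 (SE) and 0.41 ± 0.11 with the block (unadjusted p of 0.0111, adjusted p of 0.538 in limma with the block). Without TG array 3 it was -0.12, and without WT array 3 it was 0.91. Bmpr1a, the BMP receptor whose loss in the follicle is known to activate stem cells, differed by -0.092 ± 0.26 (SE) and was lowest on both arrays numbered 3. Acvr1 (ALK2) differed by 0.11 ± 0.14, Acvr1b (the activin receptor ALK4) by -0.089 ± 0.16, and Acvrl1 (ALK1, mainly an endothelial receptor) by -0.11 ± 0.20. Bmpr1b, among the dimmest 25% of all genes, differed by 0.065 ± 0.30 (SE).

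All 4 type II receptor genes had slightly lower means in TG, and none passed the test. Bmpr2, which pairs with BMP type I receptors, read 12.91, 12.92 and 12.43 in WT and 12.41, 12.79 and 12.37 in TG, a difference of -0.23 ± 0.20 (SE). TG arrays 1 and 3 were below all WT arrays, and TG array 2 was above WT array 3. The activin type II receptors Acvr2a and Acvr2b differed by -0.13 ± 0.14 and -0.21 ± 0.15, and Tgfbr2, the TGF-beta type II receptor, by -0.15 ± 0.19 (SE). Their median difference was -0.18, against -0.0075 over all genes. All 4 stayed below 0 with any single array left out, without both arrays numbered 3, and with quantile normalization, median centring or array weights. The other alternatives could not change these signs, since each repeats the difference of the main fit or of the fit without the arrays numbered 3. In the pair numbered 2, Acvr2b and Tgfbr2 were higher in TG, by 0.092 and 0.11. Over the arrays, the median deviation of the 4 genes from their own means was 0.27, 0.16 and -0.12 in WT and -0.16, 0.11 and -0.20 in TG. The suprabasal markers had list means of 12.05, 12.10 and 10.21 in WT and 11.06, 11.99 and 9.81 in TG, so both were lowest on the arrays numbered 3 and TG array 1, and the part of these cells in the receptor values was not tested.

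The co-receptors went different ways. Tgfbr3, encoding betaglycan, which presents TGF-beta 2 to its receptors, read 9.27, 9.40 and 8.95 in WT and 8.54, 9.50 and 8.32 in TG. TG arrays 1 and 3 were below all WT arrays, but TG array 2 was above them, and the difference was -0.42 ± 0.32 (SE). It was -0.78 without TG array 2. Eng, encoding endoglin, a co-receptor of endothelium and stroma, differed by 0.22 ± 0.32 (SE) and was highest on the arrays numbered 3 (6.21 in WT and 6.17 in TG), as were the endothelial markers with list means of 6.20 and 6.22. Their part in the Eng values was not tested. Bambi, a pseudoreceptor that blocks BMP and TGF-beta signalling, read 6.64, 6.29 and 7.89 in WT and 7.03, 7.16 and 7.57 in TG. Over 6 arrays it differed by 0.32 ± 0.41 (SE), and without those numbered 3 by 0.63 ± 0.16 (unadjusted p of 0.0113, adjusted p of 0.783 in limma).

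The receptor Smads other than Smad9 varied little between arrays and between genotypes. Smad1 read 9.07 to 9.20 on the 6 arrays and differed by -0.037 ± 0.12 (SE). Smad2 differed by 0.045 ± 0.13, Smad3 by 0.018 ± 0.16, Smad5 by -0.14 ± 0.16 and the common partner Smad4 by -0.019 ± 0.15 (SE). Smad9, the third BMP receptor Smad, read 5.95, 6.14 and 8.73 in WT and 6.66, 6.43 and 7.49 in TG. WT array 3 was far above every other array, and the difference of -0.080 ± 0.75 (SE) turned to 0.50 ± 0.15 without the arrays numbered 3 (unadjusted p of 0.0190, adjusted p of 0.783 in limma).

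Of the inhibitory Smads, Smad7, which blocks receptor Smads and is induced by TGF-beta, had the smallest unadjusted p of the 45 genes with the replicate block. It read 8.47, 8.27 and 9.33 in WT and 9.34, 8.80 and 10.03 in TG. The WT and TG ranges overlapped because WT array 3 was above TG array 2 and close to TG array 1, but each TG array was above the WT array of its number, by 0.87, 0.54 and 0.70. The difference was 0.70 ± 0.39 (SE), or 1.63-fold, without the block and 0.70 ± 0.12 with it (unadjusted p of 0.00126, adjusted p of 0.531 in limma). The adjusted p for Smad7 was 0.266 or higher in each of the 16 alternatives, and leaving out single arrays gave differences from 0.38 to 1.02. Smad6, which acts mainly on BMP signals, differed by 0.19 ± 0.33 (SE), with 6.81 on both arrays numbered 3 and 6.61 on TG array 1, above 5.90 to 5.98 on the other 3 arrays.

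The Smad ubiquitin ligase genes Smurf1 and Smurf2 differed by -0.11 ± 0.15 and -0.12 ± 0.15 (SE). Both were lowest on the arrays numbered 3, within a range of 0.46 and 0.44 over the 6 arrays. The corepressor gene Ski was nearly constant, at -0.024 ± 0.13 (SE), with all values between 9.49 and 9.70. Skil, encoding the related corepressor SnoN, read 7.36, 7.63 and 6.72 in WT and 8.02, 7.71 and 7.06 in TG. Each TG array was above the WT array of its number, the arrays numbered 3 were the lowest, and the difference was 0.36 ± 0.32 without the block and 0.36 ± 0.14 with it (unadjusted p of 0.0495, adjusted p of 0.587 in limma). Leaving out 1 array gave 0.10 to 0.63.

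**Figure D4:**
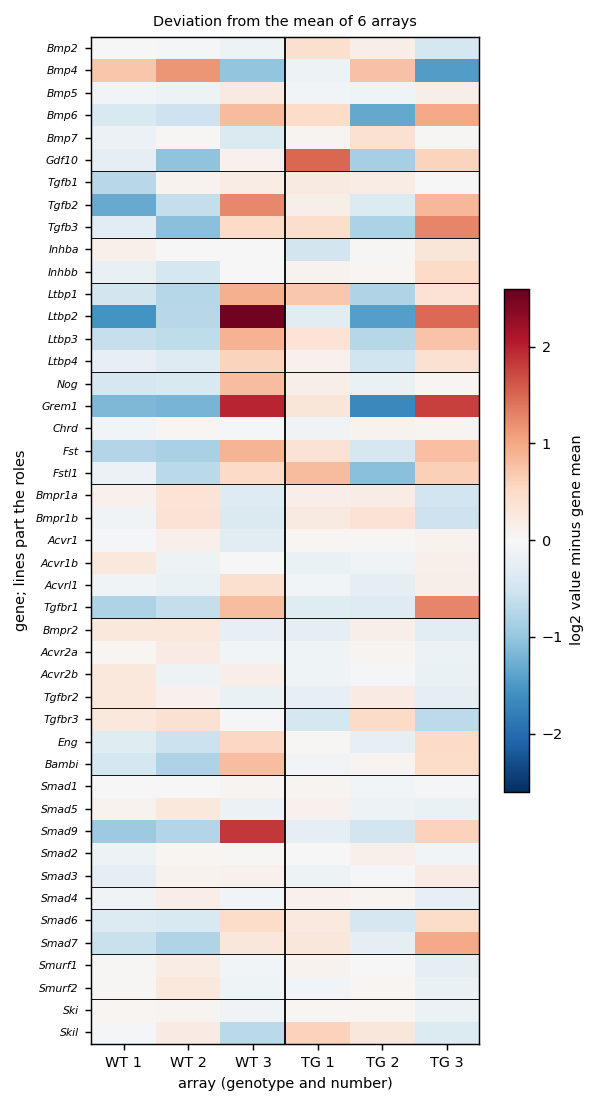
Log2 value of each of the 45 genes on each array minus its mean over the 6 arrays (colour; rows grouped by role, WT arrays left of the line and TG arrays right). Ltbp2, Grem1 and Smad9 are highest on WT array 3, Bmp4 is lowest on TG array 3, and the receptor Smads other than Smad9 vary little.

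The larger contrast in these genes was between arrays of one genotype. The median SD within genotypes was 0.373 over the 45 genes and 0.225 over all genes, and 15 of the 45 (33.3%) exceeded the 90th percentile of all genes, 0.527. Array 3 was above the mean of arrays 1 and 2 in both genotypes for 22 genes (31.4% of all genes) and below it in both for 15 (43.9%). In 16 genes both arrays numbered 3 were above all other arrays (19.4% of all genes), and in 9 both were below (28.8%). Array 3 was at least 2-fold up in both genotypes for 5 genes, Bmp6, Tgfb3, Ltbp2, Grem1 and Tgfbr1 (1.21% of all genes), and at least 2-fold down in both for 1, Bmp4 (2.62%).

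Tgfb2, Smad9, Fst, Ltbp3, Ltbp1, Bambi and Nog were more than 1 unit up on array 3 in WT, but not in TG, where the excess over TG arrays 1 and 2 lay between 0.057 for Nog and 0.96 for Tgfb2. For these genes TG array 1 was closer to TG array 3 than the WT arrays 1 and 2 were to WT array 3. Whether the 2 genotypes differ in this was not tested. The mean of the bulge markers was highest on WT array 3, TG array 3 and TG array 1, from 10.85 to 11.15, and that of the suprabasal markers was lowest on the same 3 arrays, from 9.81 to 11.06. Their part in these values was not tested.

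**Figure D5:**
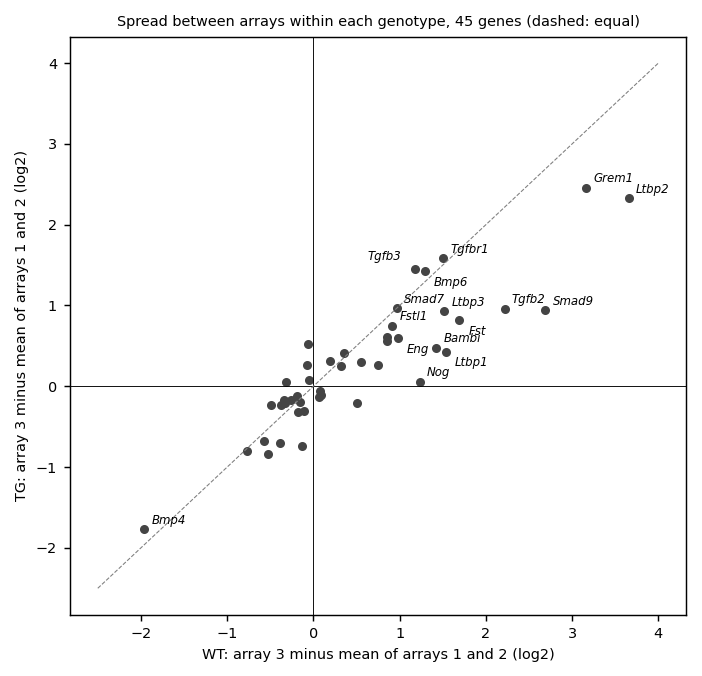
Array 3 minus the mean of arrays 1 and 2 on the log2 scale, in WT (horizontal) and in TG (vertical), for the 45 genes (points; the dashed line marks equal values). Ltbp2 (3.66 and 2.33) and Grem1 (3.17 and 2.46) are farthest up in both genotypes, and Bmp4 (-1.96 and -1.77) is farthest down.

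Among 64 other genes of the 2 pathways, 59 were measured and 0 passed the adjusted threshold in limma, with 1 higher (Sostdc1) and 1 lower (Foxh1) at an unadjusted p under 0.05, against 1.93% and 0.843% of all genes. With the replicate block there were 4 higher (Sostdc1, Dcn, Itgb6 and Bmper) and 2 lower (Rgmb and Foxh1), against 4.59% and 3.86% of all genes, and 0 passed the adjusted threshold in limma. The genotypes did not overlap for 3 of the 59, against 7.2% of all genes. Sostdc1, encoding an antagonist of BMP and Wnt signals made by follicle epithelium, read 10.71, 10.77 and 10.92 in WT and 11.60, 11.15 and 11.35 in TG, with all TG arrays above, a difference of 0.57 ± 0.16 (SE, unadjusted p of 0.00958 in limma). Bmp1, a protease that cleaves chordin, differed by 0.34 ± 0.18 (SE) with all TG arrays above. Foxh1, a DNA-binding partner of Smad2, read 6.62, 6.56 and 6.36 in WT and 6.12, 5.96 and 6.31 in TG, with all TG arrays below, a difference of -0.38 ± 0.15 (SE). Its mean of 6.32 over the arrays was low, near the array medians of 5.90 to 5.99. The median difference of the 59 was -0.0067.

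Of 28 names of Smad target genes, which include Ccn2 under an older second name, 25 were measured and 0 passed in limma. At an unadjusted p under 0.05, 2 of the 25 were higher in TG (Id1 and Fhl2) and 0 lower, against 1.93% and 0.843% of all genes, and the median difference was 0.068. With the replicate block 2 were higher (Fhl2 and Col1a1) and 0 lower, against 4.59% and 3.86%. Fhl2, a LIM-domain cofactor gene, was the 1 of 25 without overlap (7.2% of all genes), at 7.82, 7.11 and 6.69 in WT and 8.96, 7.84 and 8.44 in TG, a difference of 1.20 ± 0.37 (SE, unadjusted p of 0.0156 in limma). The Id genes, which are direct BMP targets, differed by 0.61 ± 0.25 (Id1), 0.83 ± 0.55 (Id2), 0.96 ± 0.64 (Id3) and 0.36 ± 0.21 (Id4), all SE. Id1 read 7.43, 7.82 and 8.16 in WT and 8.63, 8.60 and 8.03 in TG, with an unadjusted p of 0.044 in limma and of 0.0581 with the block, and TG array 3 was below WT array 3. Id3 read 7.59, 7.98 and 9.87 in WT and 9.81, 8.61 and 9.91 in TG, so that both arrays numbered 3 and TG array 1 were high and the genotypes overlapped.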

How the data were processed

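RNA of 6 sorted samples was read on 1 array each. The values are the authors' deposited log2 expression values, made, per the submitters' processing notes, with Expression Console 1.4.1 (Affymetrix) and with Transcriptome Analysis Console. Which log base was used and how arrays were scaled is not given in the sources used here. The base was taken as 2 from the value range (2.85 to 14.42), and array medians lay between 5.90 and 5.99. Of 41345 features, 23521 name 1 symbol, 1814 several and 16010 none. Genes were taken from features with 1 symbol, using the brightest feature by the mean of the 6 arrays, which left 22180 genes. Another 2 features that name Bmpr2 or Ltbp2 together with a second gene were not used. All 45 gene identifiers matched the RefSeq table of GRCm38.p6. Platform annotation can be old.

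WT and TG were compared with limma (version 3.58.1, R 4.3.3; lmFit, then eBayes, with Benjamini-Hochberg adjustment over all genes, threshold 0.05), tested on simulated data first. SD and SE are over arrays, and n is 3 per genotype. Deviations from the genotype means correlated across genes by 0.20, 0.67 and 0.74 for arrays sharing the numbers 1, 2 and 3. All exceeded 0.1, so the numbers were treated as pairs from this check of the data, since the labels say nothing of shared litters or days. WT array 1 correlated more with TG array 2, by 0.50, and TG array 1 correlated with WT array 2 by 0.17. The pair numbered 1 is therefore only weakly borne out by this check. The deviations within a genotype cancel out, so arrays 1 and 2 together deviate against array 3 in both genotypes. The check therefore cannot show by itself that arrays of the number 2 are a pair. The alternatives were this replicate block, each array left out, both arrays numbered 3 left out, quantile normalization, median centring, the mean of features, a filter on low values, all features, a trended prior and array weights. The block without both arrays numbered 3 was added after seeing the data.

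The 45 genes and all gene lists were chosen with earlier results of these data known. Every one of the 45 could be named. From the other pathway genes and the target genes, up to 4 per direction without overlap between genotypes were named by smallest unadjusted p, with Id1 to Id4 and Pla2g2a whatever their values. Fbln1 and the genes of small counts outside this rule were named after their values were seen. Promoters were the 250 bases before each RefSeq start.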

Additional observations from a re-analysis of the deposited data

How the results depend on the processing

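None of the 45 genes passed the adjusted threshold in limma in any of the 16 alternatives, of which the filter on low values tested 39 of the 45 and left out Bmp5, Inhba, Chrd, Bmpr1b, Eng and Smad6 (lowest adjusted p = 0.266, Smad7 with array weights). The median TG minus WT difference was 0.045 and moved by no more than the spread between replicates, except with limma's array weights, which raised it to 0.194. These weights were 1.31, 1.95 and 0.292 for WT arrays 1, 2 and 3 and 4.23, 0.957 and 0.332 for the TG arrays. The TG side of that fit thus rested mainly on TG array 1. Leaving out 1 array gave medians from -0.045 to 0.11. The number of genes whose arrays did not overlap between genotypes was 1 (7.2% of all genes), and 4 with quantile normalization (7.48%). It was 15 without both arrays numbered 3, with or without the replicate block (37.7%). With 1 array left out it was 1 to 11, where 11.4% to 23.2% of all genes did not overlap. The unadjusted p was under 0.05 for 0 genes in the fit as planned (2.77% of all genes) and 8 with the replicate block (8.45%). It was so for 8 without both arrays numbered 3 (5.92%) and 11 with both of these changes (7.36%). Without WT array 3 there were 7 (4.79%) and without TG array 2 there were 3 (3.91%). Median centring gave 1 (3.07%) and array weights gave 6 (14.1%). Of the 45 differences, 17 kept their sign in every alternative that tested them (15 of 16 for Eng and Smad6), and 28 changed it in at least 1. Not all alternatives could change a sign. The replicate block, mean of features, filter, all features and trended prior give the difference of the main fit again. Adding the block without both arrays numbered 3 likewise leaves the difference of that fit as it was. The share of all genes that kept their sign was not computed. With 1 array left out 25 changed sign, and with a rescaling 4 did (Bmp5, Ltbp4, Smad4 and Ski). Medians over all genes were -0.0075 as deposited, 0.0065 after quantile normalization and 0.026 after centring. With 3 arrays per genotype, small differences cannot be told from the spread, and Bmp5 and Bmpr1b lay among the dimmest 25% of genes, where differences are compressed.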
